A study of Mus musculus with 28 samples.

Results

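The response to LPS of macrophages primed with IL-4 was taken as the difference between mouse bone marrow-derived macrophages given IL-4 and LPS (4 arrays) and those given IL-4 alone (4 arrays). These 8 arrays were chosen by their titles from the 28 single-colour oligonucleotide arrays of the series. Both groups received IL-4 at 10 ng/ml for 18 h from day 7 of culture, and the IL-4 and LPS group also received LPS at 10 ng/ml for the last 4 h. For comparison, 3 arrays came from cells given IFN-γ (100 U/ml for 18 h) and LPS, 3 from cells given IFN-γ alone, 7 from cells given LPS alone and 7 from untreated cells. All cells were grown in human recombinant CSF1 (200 ng/ml), the growth factor that drives marrow precursors into macrophages. The marrow of several C57BL6/J mice of 8 to 12 weeks was pooled, with 2 males and 1 female named by the labels, and no genetic change was named, so an array reports a pool and not an animal. Replicates carry experiment letters, which are A, B, C and G in both IL-4 groups.

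LPS, a lipid-linked sugar of the outer membrane of Gram-negative bacteria, is presented by CD14 to the receptor TLR4. TLR4 signals through the adaptor MyD88 to NF-κB and the MAP kinases, which turn on cytokine and chemokine genes, and through the adaptor TRIF to IRF3 and interferon beta, which in turn drives antiviral genes. IL-4, a cytokine of type 2 immunity, acts through its receptor and the transcription factor STAT6, and mouse macrophages respond with the alternative activation programme, known for arginase 1, the resistin-like protein Retnla, chitinase-like proteins and lectin receptors. The comparison asks which genes LPS changes in cells that already respond to IL-4.

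The promoters of 6 genes that stand for both TLR4 routes are shown. The genes were picked among those with large rises, and only a promoter that held its motif could be shown. The presence of the motif in these 6 is therefore not a result. The promoters are the 250 bases before the annotated start, from RefSeq on build GRCm38.p6, printed 5′ to 3′ on the gene's strand. Cxcl1 (chr5:90890995-90891244), Cxcl2 (chr5:90903649-90903898), Cxcl3 (chr5:90785851-90786100) and Il6 (chr5:30012864-30013113) lie on the plus strand, and capitals mark GGANTTTCC, a core of the NF-κB motif. In Ifit1 (chr19:34640639-34640888, plus strand) and Rsad2 (chr12:26456453-26456702, minus strand) capitals mark GAAANNGAA, a core of the interferon-stimulated response element, which both hold in the reverse direction.
Cxcl1: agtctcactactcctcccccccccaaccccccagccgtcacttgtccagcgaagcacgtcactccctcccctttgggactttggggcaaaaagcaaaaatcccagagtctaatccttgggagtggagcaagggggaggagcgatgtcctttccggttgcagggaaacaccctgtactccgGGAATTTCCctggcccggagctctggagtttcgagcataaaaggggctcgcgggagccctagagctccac
Cxcl2: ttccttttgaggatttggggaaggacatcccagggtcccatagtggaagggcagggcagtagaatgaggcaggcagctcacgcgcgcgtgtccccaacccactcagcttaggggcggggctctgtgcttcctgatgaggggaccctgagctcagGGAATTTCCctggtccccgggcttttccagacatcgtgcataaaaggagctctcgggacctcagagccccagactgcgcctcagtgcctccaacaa
Cxcl3: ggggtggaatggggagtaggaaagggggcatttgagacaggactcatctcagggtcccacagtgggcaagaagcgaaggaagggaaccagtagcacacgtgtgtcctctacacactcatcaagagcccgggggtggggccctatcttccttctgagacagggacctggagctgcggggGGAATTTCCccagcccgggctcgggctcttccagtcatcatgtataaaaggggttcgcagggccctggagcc
Il6: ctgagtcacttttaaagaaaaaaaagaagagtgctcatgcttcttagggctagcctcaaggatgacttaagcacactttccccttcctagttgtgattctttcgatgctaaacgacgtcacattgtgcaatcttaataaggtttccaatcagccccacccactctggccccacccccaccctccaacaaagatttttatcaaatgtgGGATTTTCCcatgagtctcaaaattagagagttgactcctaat
Ifit1: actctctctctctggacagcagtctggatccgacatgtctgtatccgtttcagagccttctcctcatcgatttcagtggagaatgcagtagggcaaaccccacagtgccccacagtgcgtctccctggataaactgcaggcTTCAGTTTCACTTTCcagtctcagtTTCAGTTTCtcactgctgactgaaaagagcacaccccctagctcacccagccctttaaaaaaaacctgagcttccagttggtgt
Rsad2: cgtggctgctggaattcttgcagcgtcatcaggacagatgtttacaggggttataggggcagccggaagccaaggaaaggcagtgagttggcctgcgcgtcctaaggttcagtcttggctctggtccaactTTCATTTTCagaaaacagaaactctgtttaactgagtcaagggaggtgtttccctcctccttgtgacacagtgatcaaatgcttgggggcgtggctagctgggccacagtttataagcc

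The 3 chemokine promoters held the same bases, GGAATTTCC, which began 70 bases before the start in Cxcl1, 96 in Cxcl2 and 72 in Cxcl3, and Il6 held GGATTTTCC from 43 bases before its start. Ifit1 held 3 matches, 2 of them overlapping, between 109 and 76 bases before its start, and Rsad2 held 1 from 119 bases before it. Both strands were searched, matches of both motifs could overlap, and no match says only that the letters are not in this window. GGANTTTCC occurred in 1.05% of the promoters of 27025 genes and in 9.09% of the 176 promoters of genes that rose at least 16-fold. GAAANNGAA occurred in 7.16% of all promoters and in 16 of the 30 promoters found for the antiviral genes described below. The 2 motifs did not split cleanly by list. GGANTTTCC occurred in 3 of the same 30 antiviral promoters, and each motif occurred in 4 of the 16 promoters found for chemokines. These shares describe letters in a window and were not tested.

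The 8 arrays had a 75th percentile of 746 to 1618 intensity units, and between 62.4% and 72.1% of their gene spots were called well above background. Across genes, which are not independent replicates, arrays of a group correlated at 0.957 to 0.977 with IL-4 and LPS and at 0.973 to 0.985 with IL-4. IL-4 targets checked the labels, since on IL-4 arrays against untreated arrays Retnla was at least 19642-fold higher and Arg1 was higher by 10.83 ± 0.56 on the log2 scale. All 10 macrophage markers, among them Csf1r, Adgre1 and Cd68, were above background on all 8 arrays. After removal of group means the deviations of the 2 arrays of experiment G correlated at 0.727 with each other. With the other arrays of the opposite group they correlated at -0.244 to -0.442. Removal of group means itself pushes these latter values below 0 once the 2 arrays deviate together, so their sign is not a separate result. Each slide with IL-4 arrays held 1 array of each IL-4 group, in experiments C and G with the same letter, but letters A and B were crossed between 2 slides.

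Markers of other cell types were measured because marrow cultures can hold other cells. Summed over the list, dendritic cell markers had a signal of 1836 to 3646 on the IL-4 and LPS arrays, against 527 to 740 on the IL-4 arrays. Of the 7 tested 2 rose, Ccr7 and Zbtb46, with mean signals of 540 and 1556 on the IL-4 and LPS arrays, against 58.5 and 124. The other dendritic cell markers tested were not called, so the rise of this sum mostly follows these 2 genes. Fibroblast or stromal markers summed to 65699 to 74982 on the IL-4 and LPS arrays, against 30963 to 38650 on the IL-4 arrays. There 3 of 10 rose, the actin gene Acta2, the receptor gene Pdgfrb and the matrix gene Dcn. Acta2 alone had a mean signal of 66909 with IL-4 and LPS and 34450 with IL-4, so this sum mostly follows 1 gene. The other members, among them the collagen genes Col1a1, Col1a2 and Col3a1, were not called. Of 8 endothelial markers tested Kdr rose and Vwf fell, and of 10 T cell markers Lck rose and Cd8b1 fell. Of 9 B cell markers Cd79b rose and Vpreb1 fell, and of 9 neutrophil markers Mpo and Camp rose. Over all genes tested 15.7% rose and 15.5% fell, so calls among so few markers are not a result about a cell type. None of the 4 natural killer cell markers, 10 mast cell, basophil or eosinophil markers and 8 erythroid or megakaryocyte markers tested was called. Elane of neutrophils, Siglech and Clec9a of dendritic cells and Emcn of endothelial cells were not above background on any of the 8 arrays. A change in the number of such cells was not tested, and in these bulk samples fewer cells of a type and less RNA per cell cannot be told apart.

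LPS moved a large share of the genes tested in IL-4 primed macrophages, although 1176 of these were above background on none of the 8 arrays. Of 22438 genes tested, 3524 rose (15.7% of those tested) and 3489 fell (15.5%) in IL-4 and LPS arrays against IL-4 arrays, at a limma adjusted p under 0.05. Rises were larger than falls, with 264 genes (1.18%) called and at least 16-fold higher and 60 (0.267%) called and at least 16-fold lower. The direction was the same on all 4 slides for 6914 of the 7013 called genes, and for 12917 of all genes tested. The slides hold the same arrays that gave the calls, so this agreement is not separate support for them. All changes below are log2 differences between group means, IL-4 and LPS minus IL-4, with the standard error of the limma model and 4 arrays a group. Array values are signals scaled so that 1000 is the array's 75th percentile, given in the order A, B, C and G. With the slide as a block 6824 genes rose and 5049 fell, and with the 2 arrays a group of the first scan day alone 1777 rose and 1117 fell. Of the genes named below, those first-day arrays gave no call for Adm, Aqp3, Dld, Egr2, H2-Ab1, Idh1, Il23a, Il27, Msx3, Ptgs1, Ripk2, Scd2, Socs1 and Tbxas1. The median of all genes was 0.18, and under quantile normalization -0.02, where 3126 genes rose and 4673 fell. The 23 gene lists described below hold 613 tested genes in all. They were chosen with earlier results of these data known, so their counts and medians may partly follow from that choice.

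**Figure D1:**
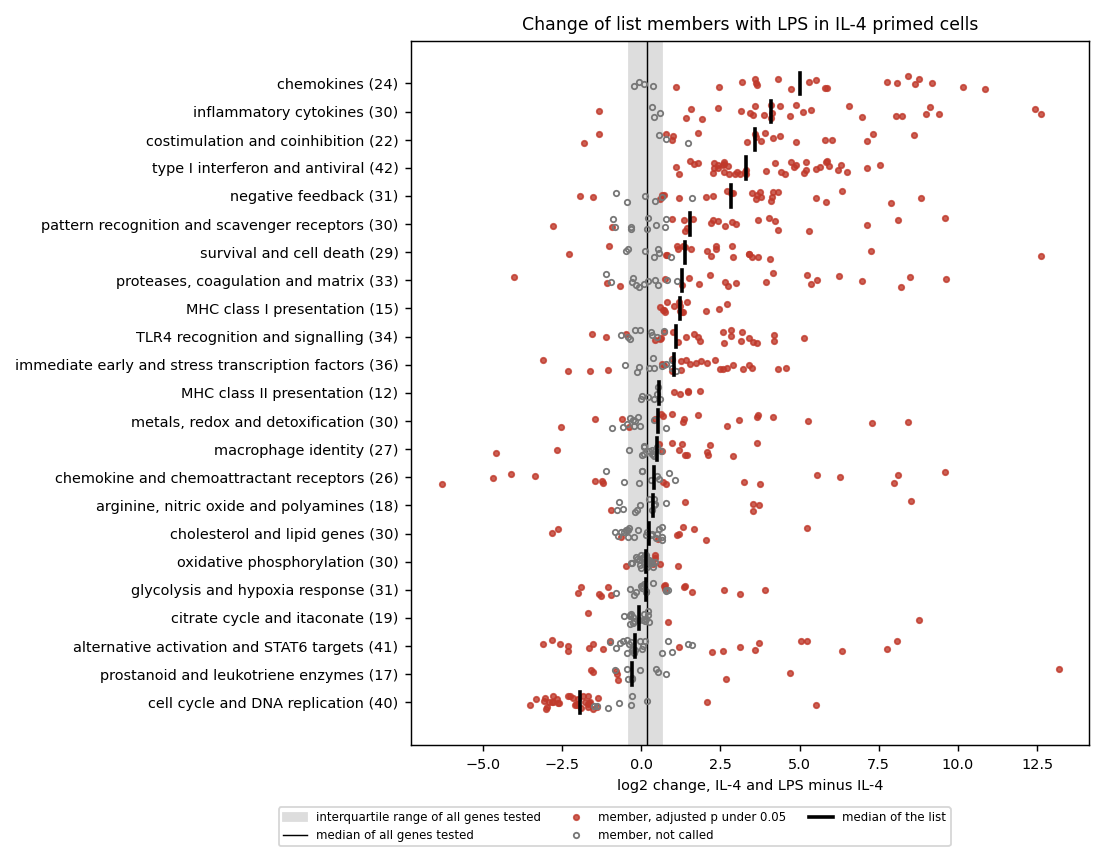
Each point is a gene of a list, placed by its log2 change with LPS in IL-4 primed cells (IL-4 and LPS minus IL-4, 4 arrays each), filled where the adjusted p was under 0.05, and bars are list medians, the number of tested members is in brackets, and the grey band is the interquartile range of all genes tested. Chemokines had the highest median (5.02) and cell cycle genes the lowest (-1.94), against 0.18 for all genes.

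Genes for recognition of LPS and the signal behind it mostly rose, with 22 rises and 3 falls among 34 members and a median of 1.09. The coreceptor gene Cd14 had signals of 82525, 81140.5, 99803 and 103394 on the IL-4 and LPS arrays, against 5577, 7932, 8938 and 6690.1 on the IL-4 arrays. The 2 groups did not overlap, and the change was 3.67 ± 0.20 (adjusted p = 3.04e-13). The receptor gene Tlr4 itself was not called (-0.62 ± 0.29, adjusted p = 0.108), with signals of 3507, 4295, 3801 and 1661 on the IL-4 and LPS arrays, against 5801, 5514, 4091 and 4066 on the IL-4 arrays. Its 2 groups overlapped, although at least 1 alternative called Tlr4 lower (lowest limma adjusted p = 0.0135). Genes of NF-κB subunits rose, by 4.20 ± 0.24 for Nfkb2, 3.41 ± 0.20 for Relb and 4.19 ± 0.53 for Rel. Traf1, an adaptor of TNF receptors, rose by 5.14 ± 0.19. Ripk2, the kinase that carries signals of the receptor NOD2, rose by 3.54 ± 0.39, although its signal on the IL-4 and LPS array of experiment B (2029) was far below those of the other 3 (6334 to 7199), and with only the arrays of the first scan day it was no longer called. The transcription factor gene Irf5 was not called, at -0.02 ± 0.22.

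Inhibitors of the same pathways rose as well, with 23 rises and 2 falls among 31 negative feedback genes and a median of 2.83. Socs3, which limits signalling of the IL-6 family, had signals of 250794, 219709, 268953 and 266503 on the IL-4 and LPS arrays, against 591, 474, 423 and 778 on the IL-4 arrays, a change of 8.83 ± 0.33 (adjusted p = 3.16e-16). Every IL-4 and LPS array was far above every IL-4 array. Nfkbiz, an atypical IκB protein that also acts as a coactivator, rose by 7.87 ± 0.37. The IL-1 receptor antagonist gene Il1rn rose by 6.34 ± 0.39, the ubiquitin-editing enzyme gene Tnfaip3 by 5.84 ± 0.22, the MAP kinase phosphatase gene Dusp2 by 5.51 ± 0.27 and the NF-κB inhibitor gene Nfkbia by 4.33 ± 0.18. The anti-inflammatory cytokine gene Il10 had signals of 3851, 3161, 3429.5 and 1687 on the IL-4 and LPS arrays, against 184, 188, 134 and 181 on the IL-4 arrays. Its groups did not overlap, and it rose by 4.09 ± 0.28. Socs1, an inhibitor of JAK kinases, had 122247, 90112, 111238 and 133594 on the IL-4 and LPS arrays, against 48675, 36535, 58476 and 58836 on the IL-4 arrays. It was already high with IL-4, rose only by 1.19 ± 0.25 (adjusted p = 0.000477), and was not called under quantile normalization or with the first scan day alone. Socs2 (-0.46 ± 0.45) and Tollip (0.11 ± 0.15) were not called.

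Inflammatory cytokine genes mostly rose, with 26 rises and 1 fall among 30 and a median of 4.11. Il1b, the gene of the fever cytokine IL-1β, had signals of 157626, 111295, 183078 and 133779 on the IL-4 and LPS arrays, against 10.3, 28.8, 54.0 and 17.2 on the IL-4 arrays. Only 1 of the IL-4 arrays was well above background, all 4 IL-4 and LPS arrays were far above them, and the change was 12.62 ± 0.59 (adjusted p = 1.48e-14). Il6, a cytokine of the acute phase response, had 97124, 44439, 157391 and 98041 on the IL-4 and LPS arrays, against 8.83, 39.6, 31.8 and 6.27 on the IL-4 arrays. It too was above background on 1 IL-4 array, and it rose by 12.44 ± 0.63 (adjusted p = 6.65e-14). Its promoter is among those with the NF-κB motif printed above. Both sizes depend on IL-4 signals near background, and after normexp background correction they were 9.64 for Il1b and 9.03 for Il6. Tnf, the gene of tumour necrosis factor, was above background on all 8 arrays, with 107796, 70549, 113592 and 176633 on the IL-4 and LPS arrays, against 524, 349.7, 188 and 549 on the IL-4 arrays. Again the ranges did not overlap, and the change was 8.23 ± 0.41 (adjusted p = 4.06e-14). No IL-4 array was above background for Il1a (at least 176-fold), Il19 (at least 156-fold) or Il12b (at least 167-fold), the shared subunit of IL-12 and IL-23. Such bounds set the mean of the IL-4 and LPS arrays against the lowest signal called above background on each IL-4 array.

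The subunits of the T cell polarising cytokines did not sit at 1 level. Il12a, the other IL-12 subunit gene, had 2693, 2531, 5732 and 6696 on the IL-4 and LPS arrays, against 5.85, 17.1, 25.1 and 22.0 on the IL-4 arrays. It was above background on 1 IL-4 array and rose by 8.04 ± 0.57, whereas Il23a reached only 63.4, 21.2, 57.2 and 102 on the IL-4 and LPS arrays and was at least 2.69-fold higher. Il27, a subunit of a cytokine that limits T cells, rose by 4.09 ± 0.41. The growth factor genes Csf2 (at least 2.21-fold higher) and Csf3 (3.60 ± 0.62) stayed at signals under 300. Csf2 was above background on 2 IL-4 and LPS arrays, and the rises of Csf2, Csf3 and Il23a were not called after normexp background correction. Ereg (0.59 ± 0.57) and Il24 (0.41 ± 0.37) were not called. Vegfa, the vascular growth factor gene, was the 1 cytokine list member that fell.

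Among chemokines 20 rose and 0 fell of 24, with a median of 5.02, and under quantile normalization 19 rose and 1 fell. The neutrophil chemoattractant gene Cxcl1, whose promoter is printed above, had 7003, 2351, 3737 and 21699.8 on the IL-4 and LPS arrays, against 4.79, 4.68, 5.23 and 6.56 on the IL-4 arrays. No IL-4 array was above background, so the rise was at least 307-fold. Its neighbours on chromosome 5, Cxcl3 (at least 463-fold higher) and Cxcl2 (9.19 ± 0.51, above background on 1 IL-4 array), rose with it, and all 3 were highest on the IL-4 and LPS array of experiment G. The T cell chemoattractant gene Cxcl10 had 332396, 212652, 283305 and 375485 on the IL-4 and LPS arrays, against 1218, 963, 363 and 1315 on the IL-4 arrays. The 2 ranges did not overlap, and the change was 8.41 ± 0.28 (adjusted p = 3.86e-17). Cxcl11 was at least 106-fold higher, Cxcl9 rose by 8.78 ± 0.54 and Ccl5 by 5.82 ± 0.25. The monocyte attractant gene Ccl2 had 489532, 436958, 474351 and 644176 on the IL-4 and LPS arrays, against 116987, 104185, 21487 and 272936 on the IL-4 arrays. It was thus already high with IL-4, and it rose by 2.46 ± 0.80 (adjusted p = 0.0189). That call was lost under quantile normalization, under median scaling and without the IL-4 array of experiment C, the lowest of the 4. Ccl20 (0.10 ± 0.39) and Cxcl14 (-0.08 ± 0.36) were not called.

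All 42 tested genes of the type I interferon and antiviral list rose, and 0 fell, with a median of 3.31. Ifnb1, the gene of interferon beta, had 2011, 633, 2191 and 4239 on the IL-4 and LPS arrays, against 14.4, 10.1, 8.72 and 8.08 on the IL-4 arrays. Since no IL-4 array was above background, its rise was at least 94.1-fold. Rsad2, which makes the antiviral nucleotide ddhCTP, had 325352, 248181, 269028 and 296669 on the IL-4 and LPS arrays, against 5550.4, 5428, 2015 and 2632 on the IL-4 arrays. The groups did not overlap, and the change was 6.32 ± 0.24 (adjusted p = 5.38e-16). Cmpk2, its neighbour in the genome and a nucleotide kinase, rose by 6.49 ± 0.29, the GTPase gene Gbp5 by 7.12 ± 0.30, and the RNA-binding effector genes Ifit1 and Ifit2 by 6.20 ± 0.27 and 5.92 ± 0.25. The transcription factor genes Irf7 and Irf1 rose by 2.60 ± 0.26 and 2.70 ± 0.23.

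**Figure D2:**
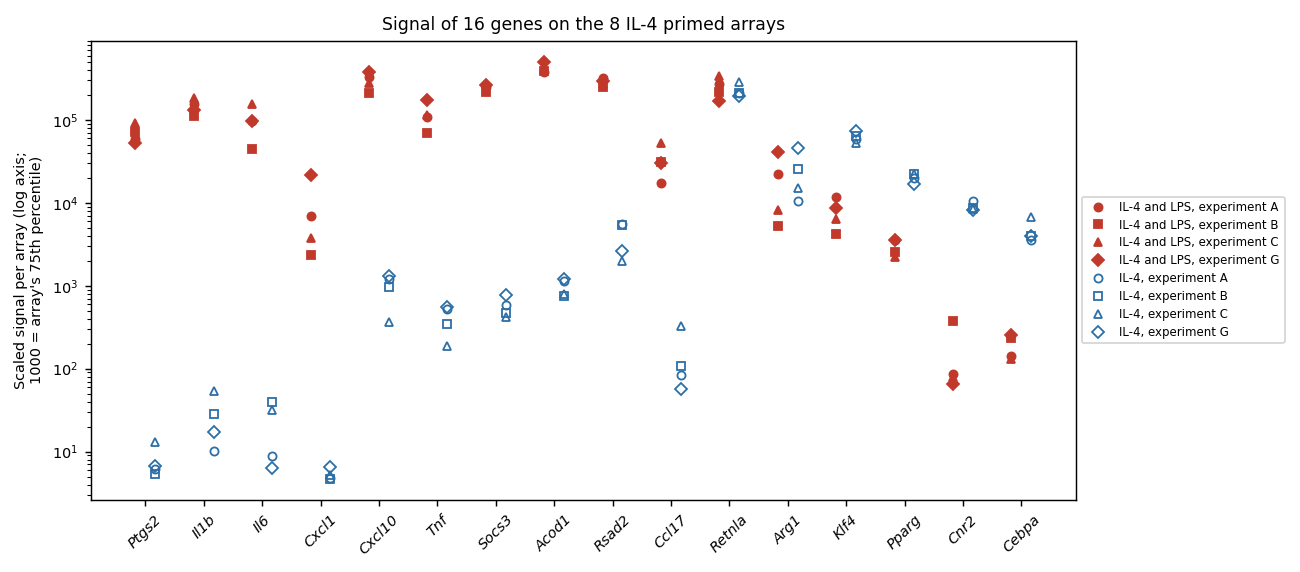
Points are the scaled signals (log axis, 1000 is the array's 75th percentile) of 16 genes on the 4 IL-4 and LPS arrays (filled, left) and the 4 IL-4 arrays (open, right), with 1 symbol an experiment. Cxcl10, Socs3, Acod1 and Rsad2 rose on every array, Retnla and Arg1 overlapped between groups, and Klf4, Pparg, Cnr2 and Cebpa fell.

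Enzymes that make small mediators went both ways. Ptgs2, the inducible cyclooxygenase of prostaglandin synthesis, had 58870, 71449, 93171 and 52637 on the IL-4 and LPS arrays, against 6.12, 5.3, 13.2 and 6.61 on the IL-4 arrays. No IL-4 array was above background, all 4 IL-4 and LPS arrays were bright, and the rise was at least 3421-fold. The prostaglandin E synthase gene Ptges (4.70 ± 0.34) and the phospholipase gene Pla2g4a (2.66 ± 0.51), which act after and before it, also rose. These were the 3 rises among 17 prostanoid and leukotriene genes, and 5 fell, among them the constitutive cyclooxygenase gene Ptgs1 (-1.51 ± 0.50) and the thromboxane synthase gene Tbxas1 (-0.78 ± 0.19), whose calls several alternatives did not keep. For Ptgs1 these included leaving out the IL-4 and LPS array of experiment B or C or the IL-4 array of experiment A. Nos2, the inducible nitric oxide synthase, had 2135, 4328, 3434 and 1127 on the IL-4 and LPS arrays, against 10.9, 8.71, 5.63 and 3.61 on the IL-4 arrays. Again no IL-4 array was above background, and it rose at least 124-fold.

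Of 18 genes of arginine, nitric oxide and polyamine metabolism 5 rose and 1 fell. Gch1, which makes the cofactor of nitric oxide synthase, rose by 3.52 ± 0.19, the arginine transporter gene Slc7a2 by 3.71 ± 0.50 and the arginine-recycling enzyme gene Ass1 by 1.39 ± 0.21. The mitochondrial arginase gene Arg2 rose by 3.52 ± 0.72 but not after normexp background correction. Arg1, the cytosolic arginase that IL-4 induces, had 22351, 5224, 8287 and 40747 on the IL-4 and LPS arrays, against 10568, 25443, 15317 and 45894 on the IL-4 arrays. The groups overlapped, and the change of -0.57 ± 0.63 was not called (adjusted p = 0.571). Acod1, which makes the antibacterial metabolite itaconate from a citrate cycle intermediate, had 378293, 392120, 398273 and 506673 on the IL-4 and LPS arrays, against 1132, 745, 794 and 1222 on the IL-4 arrays. It rose by 8.77 ± 0.22 (adjusted p = 2.47e-19), whereas of the other citrate cycle genes only Dld was called higher (0.86 ± 0.15) and only Idh1 lower (-1.69 ± 0.25), among 19 tested. Under quantile normalization 2 of these 19 rose and 9 fell.

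Genes of antigen presentation were counted by class of MHC. All 15 class I genes rose, though 10 did under quantile normalization or median scaling, among them the peptide transporter genes Tap1 (2.71 ± 0.22) and Tap2 (2.47 ± 0.19) and the immunoproteasome gene Psmb9 (1.45 ± 0.16). For class II 5 of 12 rose, 0 fell and 7 were not called, with 1.87 ± 0.36 for H2-Oa, which restrains peptide loading, and 1.46 ± 0.34 for the beta chain gene H2-Ab1, while H2-DMa was not called (0.03 ± 0.26). Among 22 costimulatory and coinhibitory genes 17 rose and 2 fell, with a median of 3.61. The early activation antigen gene Cd69 rose by 8.62 ± 0.35, Slamf1 by 7.31 ± 0.60, the adhesion gene Vcam1 by 7.12 ± 0.38 and the OX40 ligand gene Tnfsf4 by 6.01 ± 0.35. Cd40, the receptor for help from T cells, had 111134, 107125, 157097 and 111973 on the IL-4 and LPS arrays, against 1699, 2371, 1968 and 2617 on the IL-4 arrays. Again the ranges did not overlap, and the change was 5.82 ± 0.20 (adjusted p = 1.01e-16). The T cell costimulator gene Cd86 rose by 3.77 ± 0.33. The PD-1 ligand genes differed in their calls, with 3.60 ± 0.35 for Cd274 (adjusted p = 7.58e-09) and 1.47 ± 0.61 for Pdcd1lg2 (adjusted p = 0.0717), and the difference between them was not tested. At least 1 alternative did call Pdcd1lg2 higher, with a lowest limma adjusted p of 0.000921.

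Receptors that sense microbes rose for 19 and fell for 2 of 30 genes, with a median of 1.54. Fpr2 and Fpr1, receptors for bacterial formyl peptides, rose by 9.59 ± 0.39 and 8.09 ± 0.40. Clec4e, the receptor for a mycobacterial glycolipid, had 161083, 199362, 177825 and 165124 on the IL-4 and LPS arrays, against 1947, 974, 647 and 2087 on the IL-4 arrays. The 2 ranges did not overlap, and it rose by 7.11 ± 0.29 (adjusted p = 1.78e-15). The lipoprotein receptor gene Tlr2 rose by 4.23 ± 0.26, the scavenger receptor gene Marco by 5.30 ± 0.41 and the peptidoglycan sensor gene Nod2 by 4.32 ± 0.22. The β-glucan receptor gene Clec7a (-0.32 ± 0.44) and the lipid scavenger gene Cd36 (0.17 ± 0.23) were not called.

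Receptors for chemokines and other attractants went both ways, with 9 rises and 7 falls among 26. The fatty acid receptor gene Gpr84 rose by 7.99 ± 0.36, the chemerin-binding receptor gene Ccrl2 by 6.28 ± 0.27 and the niacin receptor gene Hcar2 by 5.56 ± 0.46. Cnr2, the cannabinoid receptor of immune cells, had 85.4, 378, 80.3 and 65.8 on the IL-4 and LPS arrays, against 10548, 8595, 8543 and 8105 on the IL-4 arrays, and with -6.28 ± 0.54 (adjusted p = 9.14e-10) it was the largest fall. Its groups did not overlap, although the array of experiment B (378) was well above the other 3 with IL-4 and LPS. Cxcr4, the receptor that holds cells in the marrow, fell by 4.68 on the log2 scale, with 35.4, 51.0, 29.1 and 20.5 on the IL-4 and LPS arrays, against 1006, 861, 1252 and 431 on the IL-4 arrays. No value of 1 group came near those of the other. The fractalkine receptor gene Cx3cr1 was not called (0.04 ± 0.52) at signals under 100.

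Secreted proteases, inhibitors and matrix genes rose for 18 and fell for 3 of 33 members. Serpinb2, an inhibitor of urokinase, rose by 8.21 ± 0.53. The membrane-bound metalloproteases Mmp14 and Mmp25 rose by 8.49 ± 0.37 and 5.55 ± 0.30, the proteoglycan-cleaving enzyme gene Adamts4 by 6.97 ± 0.68, and the proteoglycan gene Vcan by 6.24 ± 0.41. Fn1, the gene of fibronectin, was not called (-0.24 ± 0.56). The acute phase gene Saa3 had 185408, 320493, 233230 and 83102 on the IL-4 and LPS arrays, against 594, 316, 395 and 227 on the IL-4 arrays. It rose 511-fold, as a ratio of geometric means, and the lowest IL-4 and LPS array, of experiment G, was still over 100 times the highest IL-4 array.

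Genes for metals and redox balance rose for 15 and fell for 4 of 30, or 10 and 8 under quantile normalization. Cp, the copper oxidase ceruloplasmin, rose by 8.43 ± 0.71, the metallothionein gene Mt2 by 7.29 ± 0.37, the siderophore-binding gene Lcn2 by 5.27 ± 0.56, the cystine transporter gene Slc7a11 by 4.16 ± 0.41 and the mitochondrial superoxide dismutase gene Sod2 by 3.67 ± 0.21. Of 29 survival and cell death genes 20 rose and 2 fell. The BCL2 relative Bcl2a1b rose by 7.27 ± 0.24, and the caspase inhibitors Cflar and Birc3 rose by 3.69 ± 0.24 and 3.51 ± 0.25. So did the death receptor gene Fas (4.05 ± 0.24) and Casp4 (3.41 ± 0.21), the caspase that binds LPS inside the cell. The death effector genes Bax (0.13 ± 0.19) and Bcl2l11 (-0.49 ± 0.41) were not called. Bcl2a1b has close paralogs whose transcripts its probe may share.

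Genes of fuel metabolism had medians close to that of all genes, and their balance of rises and falls turned with the scaling. Glycolysis and hypoxia genes had 9 rises and 6 falls among 31 and a median of 0.14, but 6 rises and 10 falls under quantile normalization. The lysosomal hexose transporter gene Slc2a6 (3.90 ± 0.15), the glycolysis activator gene Pfkfb3 (3.10 ± 0.38) and the hypoxia-responsive peptide gene Adm (2.60 ± 0.50) rose, while Pfkfb4 fell (-1.99 ± 0.26) and the pyruvate kinase gene Pkm was not called (0.03 ± 0.25). Of 30 oxidative phosphorylation genes 5 rose and 1 fell, with a median of 0.15, whereas 0 rose and 10 fell under quantile normalization. Of 30 cholesterol and lipid genes 7 rose and 3 fell, against 3 and 8 under quantile normalization, among them Ch25h, which makes 25-hydroxycholesterol (5.23 ± 0.64), the oxysterol receptor gene Nr1h3 (2.03 ± 0.19) and the fatty acid carrier gene Fabp4 (1.68 ± 0.29) as rises and the desaturase gene Scd2 (-2.62 ± 0.76) as a fall. The call of Scd2 was lost after normexp background correction and without the IL-4 and LPS array of experiment C. Apoe was not called (0.16 ± 0.42).

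Genes of the IL-4 programme went both ways. The alternative activation and STAT6 target list had 11 rises and 9 falls among 41 and a median of -0.19, and 21 were not called. Retnla had 272698, 217798, 340548 and 170995 on the IL-4 and LPS arrays, against 210737, 212659, 287671 and 192487 on the IL-4 arrays. The groups overlapped at high signals, with a change of 0.12 ± 0.53 and a 95% interval of -0.96 to 1.20. The intervals were -0.85 to 0.98 for the chitinase-like gene Chil3, -0.79 to 0.37 for the mannose receptor gene Mrc1, -1.09 to 0.31 for the lectin gene Mgl2, -1.86 to 0.73 for Arg1 and -2.03 to 0.06 for the cadherin gene Cdh1. Stat6 itself was not called (-0.03 ± 0.17). At least 1 alternative called Mrc1, Mgl2 and Cdh1 lower, with lowest limma adjusted p of 0.0365, 0.0231 and 0.0292.

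Of the 9 falls, 5 were transcription factor genes, Klf4, Pparg, Egr2, Irf4 and Batf3. Klf4, a zinc finger factor that acts with STAT6, had 11662, 4256, 6321 and 8691 on the IL-4 and LPS arrays, against 58619, 64075, 52658 and 73793 on the IL-4 arrays. The groups did not overlap, and it fell by 3.10 on the log2 scale (adjusted p = 5.64e-08). Pparg, the lipid-sensing nuclear receptor, had 3521, 2528, 2231 and 3610.3 on the IL-4 and LPS arrays, against 19965, 22407, 22183 and 17018 on the IL-4 arrays. It fell by 2.80 on the log2 scale on non-overlapping arrays (adjusted p = 1.10e-10). Egr2 (-2.32 ± 0.38), Irf4 (-2.31 ± 0.38) and the water and glycerol channel gene Aqp3 (-2.55 ± 0.45) fell too, although Egr2 and Aqp3 were not called with the first scan day alone. In the other direction the type 2 chemokine genes rose, as did the receptor genes Il4ra (2.24 ± 0.36) and Il13ra1 (5.06 ± 0.31). Ccl17, which attracts Th2 and regulatory T cells, had 17361, 30746, 53335 and 30388 on the IL-4 and LPS arrays, against 83.5, 107, 327 and 56.7 on the IL-4 arrays. Again the ranges did not overlap, and it rose by 8.07 ± 0.50 (adjusted p = 2.75e-12). Ccl22, a ligand of the same receptor, rose by 7.75 ± 0.67 from an IL-4 level above background on 1 array, and the eosinophil attractant gene Ccl24 rose by 3.61 ± 0.64.

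**Figure D3:**
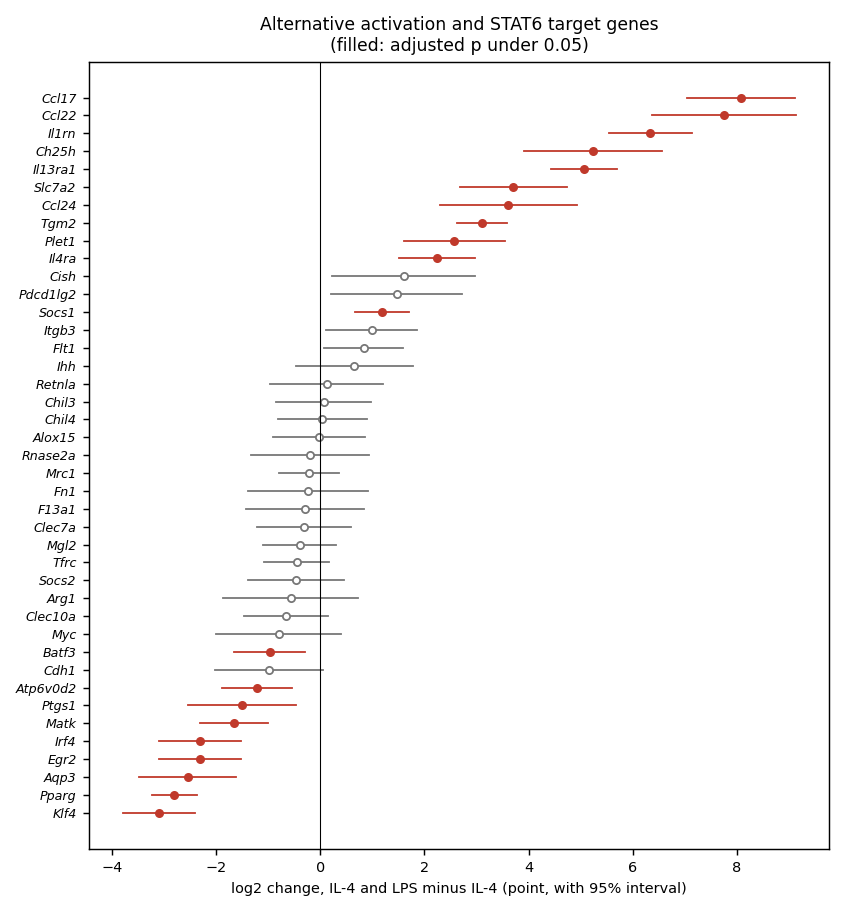
Points are log2 changes with LPS in IL-4 primed cells (IL-4 and LPS minus IL-4) of 41 STAT6 target and alternative activation genes, with 95% intervals from the limma model, filled where the adjusted p was under 0.05. Klf4, Pparg, Aqp3, Egr2 and Irf4 lie below 0, Ccl17, Ccl22 and Il1rn above 5, and the intervals of Retnla, Chil3, Mrc1 and Arg1 span 0.

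Transcription factor genes of the immediate early and stress group rose for 21 and fell for 4 of 36. Batf and Batf2, which pair with JUN proteins, rose by 4.58 ± 0.16 and 4.31 ± 0.20, and Cebpd, Ets2 and Maff rose by 3.50 ± 0.37, 3.42 ± 0.41 and 3.21 ± 0.30. Of 27 macrophage identity genes 12 rose and 2 fell, but under quantile normalization 8 rose and 7 fell. Cebpa, a factor of myeloid differentiation, had 143, 235, 131 and 254 on the IL-4 and LPS arrays, against 3589, 3948, 6833 and 3969 on the IL-4 arrays. It fell by 4.60 on the log2 scale (adjusted p = 1.38e-10) with no overlap. The lineage factor genes Spi1 and Irf8 rose by 2.11 ± 0.27 and 2.89 ± 0.33 and the antibody receptor gene Fcgr1 by 2.19 ± 0.23.

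Cell division genes formed the most one-sided fall of the lists, with 31 falls and 2 rises among 40 and a median of -1.94. The replication licensing genes Gmnn (-3.51 ± 0.46) and Cdc6 (-3.02 ± 0.43), the mitotic activator gene Cdc20 (-3.31 ± 0.57), the cyclin gene Ccne2 (-3.02 ± 0.56) and the nucleotide synthesis gene Rrm2 (-3.06 ± 0.89) fell. Cdc20 had 1738, 1399, 514 and 4249.8 on the IL-4 and LPS arrays, against 17324, 12857, 12068 and 19232 on the IL-4 arrays. The 2 ranges did not overlap, and the array of experiment G was the highest of each. The cyclin gene Ccnd2, which responds to growth factors, rose by 5.53 ± 0.46, while Pcna (-0.32 ± 0.34) and Tyms (0.17 ± 0.52) were not called. Rrm2 was not called without the IL-4 and LPS array of experiment C, its lowest value.

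Other large falls were in genes with less settled roles in macrophages. Cbx8, a Polycomb reader, had 5.34, 13.4, 12.8 and 10.6 on the IL-4 and LPS arrays, against 442, 540.1, 875 and 689.7 on the IL-4 arrays. No IL-4 and LPS array was above background, and it was at least 31.8-fold lower. Fam214a (-6.08 ± 0.54), the glycosyltransferase gene Galnt9 (-5.32 ± 0.68), Plekhg3 (-5.31 ± 0.40), Ier5l (-5.00 ± 0.31), the adaptor gene Sh2d1b1 (-4.69 ± 0.35) and the centrosome gene Tacc2 (-4.59 ± 0.40) fell as well. Fam214a was above background on 1, Galnt9 on 2 and Sh2d1b1 on 3 of the 4 IL-4 and LPS arrays. Among the large rises outside the lists, Shisa3, a membrane protein gene, was at least 247-fold higher.

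The LPS change in IL-4 primed cells was then set against that in unprimed cells (LPS against untreated, 7 arrays each). In unprimed cells 4933 genes rose (22.0%) and 4647 fell (20.7%). Of the rises in IL-4 primed cells 90.5% were also called higher in unprimed cells, and these were 64.6% of the rises there. Of the falls in IL-4 primed cells 91.1% were also called lower in unprimed cells, or 68.4% of the falls there. Just 9 genes rose in IL-4 primed and fell in unprimed cells, and 11 did the opposite. With 4 arrays a group against 7, the number of calls does not say that fewer genes responded after IL-4.

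The difference between both LPS changes was tested as an interaction, which is IL-4 primed minus unprimed. Each slide with IL-4 arrays held both IL-4 groups. By contrast, some untreated arrays lay on slides without an LPS array, and some LPS arrays on slides without an untreated array. Only the IL-4 primed change was thus balanced over slides. The interaction was positive for 215 genes (0.958%) and negative for 156 (0.695%). Of the positive ones 131 were called higher with LPS in both kinds of cells, 25 only in IL-4 primed cells, and 31 were called lower only in unprimed cells. Of the negative ones 53 were called higher in both, 45 only in unprimed cells, and 30 were called lower only in IL-4 primed cells. With the experiment letter as a block these counts were 171 and 122 over all 28 arrays, or 137 and 103 over the groups compared. They fell to 31 and 25 after normexp background correction. By list, 21 of the 42 antiviral genes and 7 of the 24 chemokines had a positive interaction and 0 a negative one, and the STAT6 target list had 2 positive and 5 negative.

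**Figure D4:**
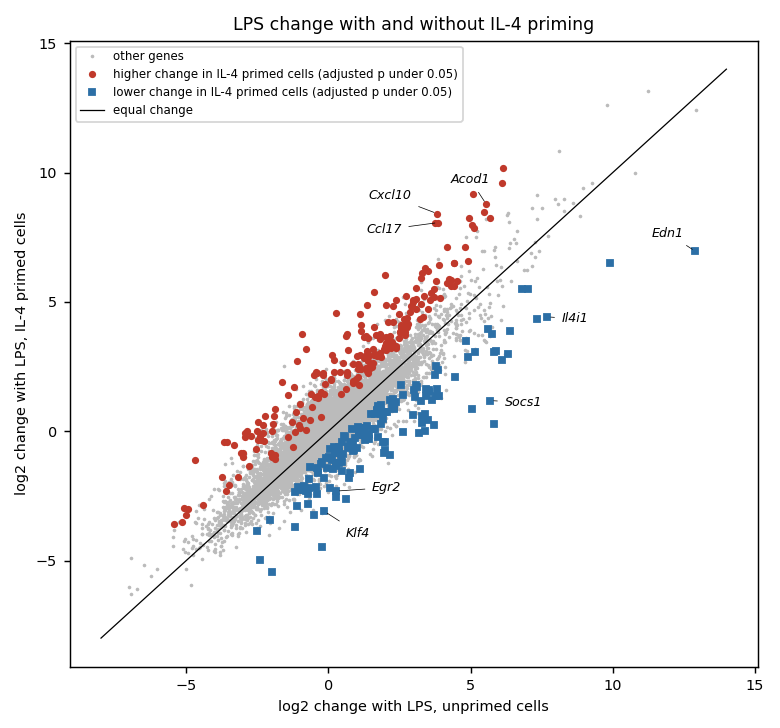
Each point is a gene, placed by its log2 change with LPS in unprimed cells (x axis, LPS minus untreated, 7 arrays each) and in IL-4 primed cells (y axis, IL-4 and LPS minus IL-4, 4 arrays each). The 215 genes with a higher change in IL-4 primed cells are red circles, the 156 with a lower one blue squares, and the line marks equal change.

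Several antiviral and chemokine genes had a larger LPS change in IL-4 primed cells and a lower level there without LPS. Cxcl10 reached a low of 212652, a median of 307851 and a high of 375485 on IL-4 and LPS arrays and a low of 363, a median of 1091 and a high of 1315 on IL-4 arrays. On LPS arrays it had a low of 287683, a median of 347588 and a high of 379481, and on untreated arrays a low of 18454, a median of 25071 and a high of 29348. The signals with LPS overlapped between IL-4 primed and unprimed cells, whereas those without LPS were lower on every IL-4 array. The interaction was 4.58 ± 0.35 (adjusted p = 1.53e-08). Acod1 had medians of 395196 with IL-4 and LPS and 963 with IL-4, beside 398678 with LPS and 8691 untreated, an interaction of 3.22 ± 0.28 (adjusted p = 1.45e-07). Rsad2 (2.92 ± 0.31), Ifit1 (2.71 ± 0.34), Ifit2 (2.67 ± 0.32), Clec4e (2.94 ± 0.37) and Mmp14 (3.00 ± 0.46) also had a positive interaction, were lower with IL-4 than untreated (by -3.12 ± 0.24 for Ifit1 on the log2 scale) and did not pass the test between both LPS groups. These genes kept their call for the interaction in all alternatives tried, except that Mmp14 was not called with experiments A, B, C and G alone. The interaction and the differences with and without LPS share arrays and are not independent.

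For Cd14 the level with LPS differed as well. It had a low of 81140.5, a median of 91164 and a high of 103394 on IL-4 and LPS arrays, below the LPS arrays with a low of 145894, a median of 213894 and a high of 274701. No value of 1 group reached the other, a difference of -1.23 ± 0.18 between IL-4 and LPS and LPS arrays (adjusted p = 3.51e-05). Its interaction was nevertheless 1.83 ± 0.25, which median scaling did not call. Cxcl1 (4.01 ± 0.73), Cxcl2 (4.11 ± 0.64), Fpr2 (3.47 ± 0.49), Gpr84 (2.92 ± 0.46) and Aqp9 (3.42 ± 0.52) also had positive interactions. Of the 4 IL-4 arrays 0 were above background for Cxcl1, 1 for Cxcl2, 2 for Fpr2, 2 for Gpr84 and 3 for Aqp9, so these sizes depend on signals near background, and none was called after normexp background correction, nor were Tnf (2.54 ± 0.51) and Nfkbiz (2.75 ± 0.46).

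Ccl17 and Il12a were highest when both stimuli were given. Ccl17 had a low of 17361, a median of 30567 and a high of 53335 on IL-4 and LPS arrays and a low of 56.7, a median of 95.3 and a high of 327 on IL-4 arrays. On LPS arrays it had a low of 249.7, a median of 799 and a high of 2116, and on untreated arrays a low of 32.6, a median of 51.3 and a high of 81.4. Every IL-4 and LPS array lay above every other array of these groups, with an interaction of 4.20 ± 0.63 (adjusted p = 0.000334) that every alternative called. Il12a had medians of 4212 with IL-4 and LPS and 19.5 with IL-4, beside 258 with LPS and 18.0 untreated. Its interaction of 4.29 ± 0.71 (adjusted p = 0.000981) was not called after normexp background correction. The myosin kinase gene Mylk (3.95 ± 0.47), the sialyltransferase gene St8sia6 (4.32 ± 0.72, with 0 IL-4 arrays above background) and the BAFF receptor gene Tnfrsf13c (3.78 ± 0.54) were others with a positive interaction, which that correction did not keep.

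Of the 15 genes named with a negative interaction, 13 were called higher with IL-4 than untreated, and Dusp2 (-0.15) and Irf5 (0.06) were not. A high IL-4 or a low untreated signal itself lowers the interaction, so this count is partly built in and is not a result about these genes. The share of all genes tested that were called higher with IL-4 is not given here. Some of the 13 still rose with LPS. Socs1 had a low of 90112, a median of 116743 and a high of 133594 on IL-4 and LPS arrays and a low of 36535, a median of 53575 and a high of 58836 on IL-4 arrays, beside a low of 37734, a median of 80323 and a high of 110678 on LPS arrays and a low of 1014, a median of 1507 and a high of 1941 on untreated arrays. Only the untreated arrays were low, and the interaction was -4.50 ± 0.31 (adjusted p = 4.23e-09). Edn1, the gene of the vessel-constricting peptide endothelin-1, had 97239, 85791, 130908 and 88494 on the IL-4 and LPS arrays, against 726, 833, 729 and 921 on the IL-4 arrays. The unprimed medians were 67605 with LPS and 6.76 untreated, where only 2 of 7 arrays were above background, and the interaction of -5.95 ± 0.52 was the lowest of all genes but was not called after normexp background correction. Il4i1, a secreted amino acid oxidase, had medians of 274881 with IL-4 and LPS and 9940.2 with IL-4, beside 56361 with LPS and 277 untreated. It was thus highest with both stimuli, with an interaction of -3.28 ± 0.47 (adjusted p = 0.000224). Ocstamp (-3.45 ± 0.56), Rasgrp1 (-3.35 ± 0.49), Tarm1 (-3.34 ± 0.55) and Itgb8 (-3.42 ± 0.64) were called too, but not after normexp background correction, and Itgb8 was above background on 0 of the 7 untreated arrays. Another probe of Itgb8 gave an interaction of 2.35, in the opposite direction.

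Others were lowered by LPS. Klf4 had a low of 4256, a median of 7506 and a high of 11662 on IL-4 and LPS arrays and a low of 52658, a median of 61347 and a high of 73793 on IL-4 arrays, beside a low of 4118, a median of 8225 and a high of 9986 on LPS arrays and a low of 5797, a median of 9012 and a high of 11618 on untreated arrays. With LPS the IL-4 primed cells overlapped with both unprimed groups, and the interaction was -2.95 ± 0.42 (adjusted p = 0.000192). Egr2 fell only part of the way, with medians of 13010 with IL-4 and LPS and 56455 with IL-4, beside 2331 with LPS and 2028 untreated (-2.58 ± 0.48). Pparg had medians of 3025 with IL-4 and LPS and 21074 with IL-4, beside 5055 with LPS and 8106 untreated (-2.07 ± 0.27, adjusted p = 5.54e-05). Aqp3 (-2.82 ± 0.57) and the homeobox gene Msx3 (-4.22 ± 0.99) followed, with calls that normexp background correction did not keep. Egr2 and Aqp3 were not called with experiments A, B, C and G alone.

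**Figure D5:**
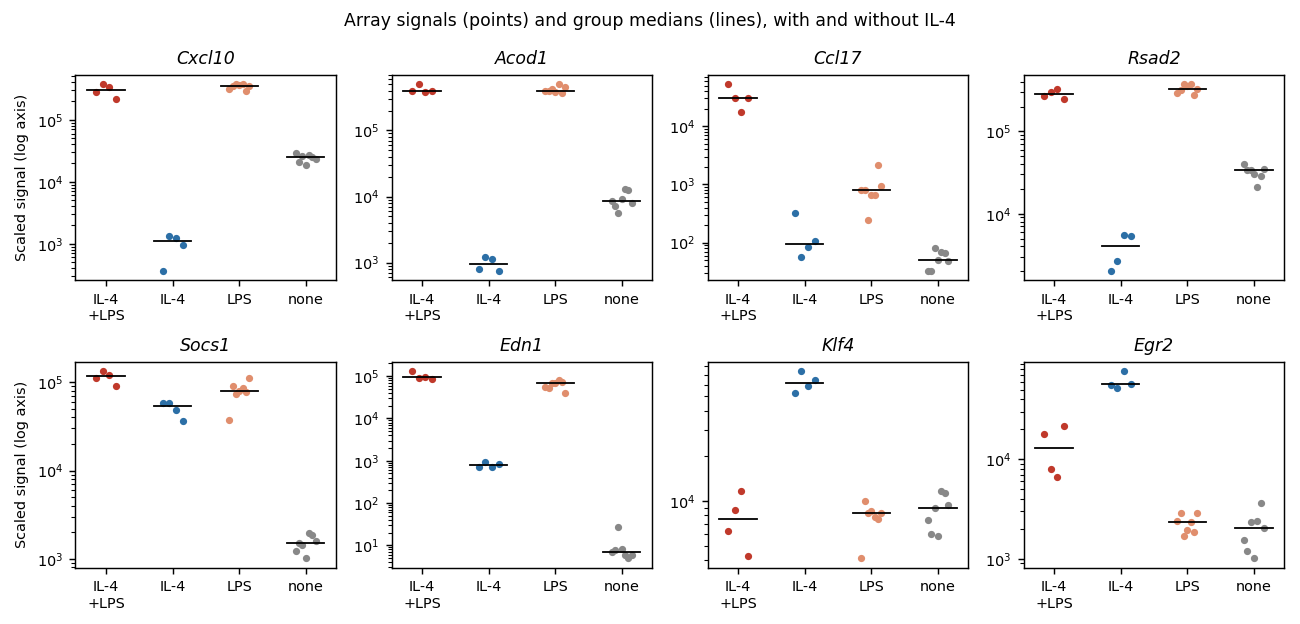
Points are scaled signals of single arrays (log axis) and lines group medians for IL-4 and LPS (4 arrays), IL-4 (4), LPS (7) and no treatment (7). Cxcl10, Acod1 and Rsad2 overlap between the 2 groups with LPS and are lower with IL-4 than untreated, Ccl17 is highest with both stimuli, and Klf4 and Egr2 are highest with IL-4 alone.

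Set against cells primed with IFN-γ (3 arrays with LPS and 3 without), the LPS change was higher in IL-4 primed cells for 813 genes (3.62%) and lower for 407 (1.81%). All 42 antiviral genes were among the higher ones. Cxcl10 had a low of 405376, a median of 435042 and a high of 505754 on IFN-γ and LPS arrays and a low of 254567, a median of 281146 and a high of 405939 on IFN-γ arrays, so it was high without LPS, and the difference between the LPS changes was 7.87 ± 0.42 (adjusted p = 7.24e-12). Acod1 (7.98 ± 0.34), Il1b (8.04 ± 0.90), Ptgs2 (8.78 ± 0.80) and Ccl17 (7.22 ± 0.77) were among the larger ones, as was Cxcl9 (8.12 ± 0.83). The size for Ptgs2 depends on its IL-4 signals, with 0 arrays above background, as do those of Il1b and Cxcl9 with 1 array each. The median of Ccl17 was 60.9 on IFN-γ and LPS arrays, and that difference of levels was not tested. On the lower side were Egr2 (-4.69 ± 0.58), Ier5l (-4.65 ± 0.47), Irf4 (-4.28 ± 0.58), Klf4 (-3.05 ± 0.51) and Msx3 (-4.43 ± 1.20). The LPS change of Il10 did not pass the test of that difference (-1.02 ± 0.43, adjusted p = 0.239).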

How the data were processed

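Total RNA of each sample was labelled with Cy3 and hybridised to single-colour arrays, and the deposited scanner files give an intensity per spot that the scanner software had already corrected for background (Agilent Feature Extraction 9.5.1, per the file headers). Log2 intensities were scaled by each array's 75th percentile, spots of a probe were averaged, and the brightest of a gene's probes stood for the gene. Control spots and flagged outliers were left out. A gene was tested if well above background on at least 3 of the 28 arrays (22438 of 27670 names, of which 17037 are current symbols). One limma model (3.58.1, R 4.3.3) was fitted over all 28 arrays with a mean for each of 6 groups, and p-values were adjusted over all genes by Benjamini-Hochberg. The authors' value table, with 28 columns of samples, was not used because its column order is in doubt. On simulated data for the LPS change in IL-4 primed cells, 62% of 4-fold and 31% of 2-fold changes were recovered over 22438 genes with 200 changed, and 2 unchanged genes were called. The simulated noise was independent between arrays, whereas arrays of a slide deviated together, and far fewer genes were changed than the 7013 called. These rates therefore need not hold for the data. Nothing in the labels ties the replicates to separate animals, and replicates of a group lie on different slides and scan days. The p-values therefore measure the spread between these pooled cultures together with that between slides and scans. The number of arrays limits the precision. Same-letter arrays of both IL-4 groups deviated together (0.156, 0.185, 0.42 and 0.727 for A, B, C and G), but arrays A and B correlated more across letters, on shared slides (0.391 and 0.479). The reported model holds no pairs, and letter and slide each entered as a block in alternatives.

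Members and gene lists were chosen with earlier results of these data known. Genes were named if among the 15 largest rises or falls of a comparison, or among the 6 largest called or 2 least called members of a list, or if on a further fixed list, and not all of these are described. Vegfa, Batf3 and the markers of other cell types stand outside that rule, and the first pair was chosen after its values were seen. Alternatives covered background correction, scaling, filters, probes, blocks, array weights and single arrays left out. A few genes are not reported here.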

Additional observations from a re-analysis of the deposited data

Results flagged for a closer look

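In groups of 4 arrays, 1 array lay far from the other 3 for 22 of the 344 combinations of a named gene and a group (6.4%), where chance alone gives about 1 in 20. Of these arrays 10 were of experiment G, 8 of C, 3 of B and 1 of A. Signals are scaled so that 1000 is the array's 75th percentile. The IL-4 and LPS array of experiment G was above the others for Csf2 (105, the others 28.6 to 35.0), Ccl5 (484116, the others 347688 to 357652) and Ocstamp (18459.7, the others 10507 to 11448). The IL-4 and LPS array of experiment G was below the others for Il24 (69.9, the others 127 to 139) and Casp4 (85729, the others 127597 to 134677). The IL-4 array of experiment G was above the others for Csf3 (26.0, the others 5.97 to 7.19). The IL-4 array of experiment G was below the others for Cxcl11 (3.68, the others 5.75 to 6.16), Gbp5 (255, the others 568 to 644), Irf1 (25461, the others 39087 to 42165) and Adm (42.9, the others 116 to 129). The IL-4 and LPS array of experiment C was above the others for Cd40 (157097, the others 107125 to 111973) and Fabp4 (46528, the others 26954 to 28161). The IL-4 and LPS array of experiment C was below the others for Tlr2 (37910.2, the others 68516 to 76323). The IL-4 array of experiment C was above the others for Bcl2a1b (2675, the others 1241 to 1374), Cebpa (6833, the others 3589 to 3969) and Apoe (99711, the others 31289 to 36708). The IL-4 array of experiment C was below the others for Il10 (134, the others 181 to 188) and Aqp9 (16.7, the others 43.6 to 49.8). The IL-4 and LPS array of experiment B was above the others for Cnr2 (378, the others 65.8 to 85.4). The IL-4 and LPS array of experiment B was below the others for Ripk2 (2029, the others 6334 to 7199) and Nfkbiz (14128, the others 48481 to 50266). The IL-4 array of experiment A was above the others for Il13ra1 (82.7, the others 37.0 to 40.4).

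The LPS change differed between IL-4 primed and unprimed cells, by the interaction term of limma at an adjusted p under 0.05, for 45 of the named genes. On the log2 scale the change in IL-4 primed cells exceeded that in unprimed cells by 4.58 for Cxcl10, 4.32 for St8sia6, 4.29 for Il12a, 4.20 for Ccl17, 4.11 for Cxcl2, 4.01 for Cxcl1, 3.95 for Mylk, 3.78 for Tnfrsf13c, 3.47 for Fpr2, 3.42 for Aqp9, 3.22 for Acod1, 3.00 for Mmp14, 2.94 for Clec4e, 2.92 for Gpr84, 2.92 for Rsad2, 2.75 for Nfkbiz, 2.71 for Ifit1, 2.67 for Ifit2, 2.54 for Tnf, 2.44 for Ccnd2, 2.31 for Vcam1, 2.13 for Tlr2, 2.09 for Cmpk2, 1.83 for Cd14, 1.49 for Il13ra1, 1.39 for Relb, 1.30 for Ccl5, 1.23 for Traf1, 1.09 for Nod2 and 1.07 for Nr1h3. It was lower in IL-4 primed cells, as a difference, by -5.95 for Edn1, -4.50 for Socs1, -4.22 for Msx3, -3.45 for Ocstamp, -3.42 for Itgb8, -3.35 for Rasgrp1, -3.34 for Tarm1, -3.28 for Il4i1, -2.95 for Klf4, -2.82 for Aqp3, -2.60 for Ier5l, -2.58 for Egr2, -2.07 for Pparg, -1.30 for Dusp2 and -1.09 for Irf5. Some of these calls were lost under an alternative. After normexp background correction they were those of Aqp3, Aqp9, Ccl5, Ccnd2, Cxcl1, Cxcl2, Dusp2, Edn1, Fpr2, Gpr84, Ier5l, Il12a, Il13ra1, Irf5, Itgb8, Msx3, Mylk, Nfkbiz, Nod2, Nr1h3, Ocstamp, Rasgrp1, Relb, St8sia6, Tarm1, Tnf, Tnfrsf13c, Traf1 and Vcam1. Under median scaling they were those of Ccl5, Ccnd2, Cd14, Cmpk2, Dusp2, Irf5, Nod2, Nr1h3, Relb, Tlr2, Tnf and Traf1. With experiments A, B, C and G alone they were those of Aqp3, Ccnd2, Cmpk2, Cxcl1, Cxcl2, Dusp2, Egr2, Il13ra1, Irf5, Mmp14, Msx3, Nfkbiz, Nod2, Nr1h3, Relb, Tnf and Vcam1. With the experiment letter as a block over the groups compared they were those of Ccl5, Ccnd2, Dusp2, Il13ra1, Irf5, Msx3, Nod2, Nr1h3 and Vcam1. The interactions of Irf5, Dusp2, Nod2 and Il13ra1 were lost under 14, 13, 13 and 13 of the alternatives, and those of Ccl5, Ccnd2 and Msx3 under 9, 8 and 7, in each case also without some single array of the IL-4 groups. A positive difference can stand beside similar levels with LPS, as for Cxcl10, Acod1 and Rsad2. Whether the lower signals of these genes with IL-4 alone move with array quality or with the makeup of the cultures was not tested.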

How the results depend on the processing

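The LPS change in IL-4 primed cells was called for 7013 genes as reported. The count was 3891 after normexp background correction (2077 higher, 1814 lower), 11873 with the slide as a block (6824 and 5049) and 2894 with the first scan day alone, which leaves 2 arrays a group. It was 7799 under quantile normalization, 5575 under median scaling and 6031 to 7522 without any 1 of the 8 arrays. With the experiment letter as a replicate block the count was 6934 over all 28 arrays and 7272 over the groups compared, and among the named genes it ended the call of Tbxas1, in the fit of the groups compared only.

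The interaction with unprimed cells was called for 371 genes as reported. It was called for 56 after normexp background correction, 180 under median scaling, 240 with the replicate block over the groups compared, 1057 with the slide as a block, 913 with the scan day as a block, 592 with array weights, 112 with experiments A, B, C and G alone, and 258 to 344 without any 1 of the 8 arrays. The difference from IFN-γ primed cells was called for 1220 genes as reported, 570 after normexp background correction, 703 under median scaling and 3391 with the slide as a block. No call on a named gene turned into a call in the other direction. Bcl2l11, not called as reported (-0.49), was 1.12 with the mean over its probes (adjusted p = 0.0113), and the called interaction of Il13ra1 (1.49) was lost near 0 after normexp background correction (-0.021). Of the 4126 values of named genes for the LPS change in IL-4 primed cells under alternatives, 35 no longer passed the threshold and 24 passed it anew. Among the latter were values of Pdcd1lg2, Tlr4, Mrc1, Mgl2, Cdh1, Pcna, Ereg and Il24. For the interaction the values that lost and gained a call were 121 and 75 of 3784, and for the difference from IFN-γ primed cells 40 and 27 of 1203. The replicate block ended the difference of Ccl24 and Ets2 from IFN-γ primed cells over all 28 arrays and, over the groups compared, the interaction of 9 named genes, which are Ccl5, Ccnd2, Dusp2, Il13ra1, Irf5, Msx3, Nod2, Nr1h3 and Vcam1. The alternatives without experiment G, with the first scan day alone and with the slide as a block over the groups compared were chosen after seeing the data. Apart from alternatives that use fewer arrays or genes, the cause of these shifts was not tested. Signals near background limit the size of a change, as for the 281 rises with no IL-4 array above background and the 156 falls with no IL-4 and LPS array above it.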
